A study of Homo sapiens with 6 samples.

Results

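Human gene annotations hold many long noncoding RNAs that carry no descriptive name and are known by the genomic clone they were read from, such as AC087289.2 or AL928654.1. These clone-named long noncoding RNAs were taken as every row of the authors' deposited comparison table with the gene type lncRNA and a name of 2 letters, 6 digits, a point and a number. The rule gave 752 of the 14538 rows (5.17%) and 54.3% of the 1384 long noncoding RNA rows. The names are those of an annotation release: 745 of the 752 have a current database entry, of which 450 still have only an Ensembl identifier as symbol, 147 have since been named as the divergent transcript (-DT) of a gene, 109 as an antisense RNA (-AS), and 19 as a LINC gene.

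Total RNA was measured in HEK293T cells, a human embryonic kidney line, in which both copies of INTS8 carry a miniAID tag. The tag is a short degron that lets auxin, through the plant receptor TIR1, direct the tagged protein to the proteasome. The 3 libraries treated with 100 µM auxin for 48 h were set against 3 libraries of the same tagged cells without auxin, so the tag is common to both groups and the effect of auxin itself is not separated from that of INTS8 loss. The labels do not say whether the cells are 1 clone or several, nor whether the 3 libraries came from separate cultures, so p-values measure the spread between these libraries, which may be technical.

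INTS8 is a subunit of the Integrator complex, which binds RNA polymerase II soon after it starts, cleaves the nascent RNA through its endonuclease subunit INTS11, and carries a PP2A phosphatase module to which INTS8 belongs. Most mammalian promoters are transcribed in both directions, and the RNA made away from the gene, called an upstream antisense or promoter upstream transcript, is usually short and quickly degraded by the nuclear exosome. Integrator is known to end transcription of many such noncoding units, enhancer RNAs among them. The position of each noncoding RNA relative to coding genes is therefore described here beside its level.

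The members were compact, spliced and mostly attached to a promoter. Their median transcript length was 633 bases, against 2979.5 bases for the 12824 protein-coding rows. Among the 738 members with a transcript of the same length in GENCODE release 29, 451 had 2 exons, 287 had 3 or more, and 0 had 1. By the position of their 5′ end, 467 of 752 (62.1%) were divergent, meaning that they lay on the opposite strand and began within 2000 bases of the start of a protein-coding row of the table. Of the remainder, 64 overlapped a coding row on the opposite strand, 19 overlapped one on the same strand, 25 began within 10000 bases downstream of one, 19 ended within 10000 bases upstream of one, 24 lay within that distance on the opposite strand, and 134 had no coding row within 10000 bases. The newer names follow this division, since 144 of the 147 members renamed -DT were in the divergent group.

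The sequence between a member and its coding neighbour is shown for 4 divergent pairs named below for their size of change or level, because it holds the bidirectional promoter from which both RNAs start. Each is the RefSeq promoter window of the coding gene (GRCh38.p14, 250 bases before to 50 bases after its start), printed 5′ to 3′ on the coding gene's strand. Capitals mark the bases that lie between the start of the coding gene and the start of the noncoding RNA, which runs to the left on the other strand.
AC087289.2 and TRIM65, chr17:75896902-75897201, minus strand: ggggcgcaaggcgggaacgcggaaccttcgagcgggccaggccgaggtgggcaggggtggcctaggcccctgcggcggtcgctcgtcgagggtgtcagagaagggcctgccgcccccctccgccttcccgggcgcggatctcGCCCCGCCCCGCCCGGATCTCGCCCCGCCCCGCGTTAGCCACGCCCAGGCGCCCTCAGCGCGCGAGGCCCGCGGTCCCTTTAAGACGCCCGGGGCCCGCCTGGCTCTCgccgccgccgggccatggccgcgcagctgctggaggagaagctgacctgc
AC008736.1 and NUDT19, chr19:32691571-32691870, plus strand: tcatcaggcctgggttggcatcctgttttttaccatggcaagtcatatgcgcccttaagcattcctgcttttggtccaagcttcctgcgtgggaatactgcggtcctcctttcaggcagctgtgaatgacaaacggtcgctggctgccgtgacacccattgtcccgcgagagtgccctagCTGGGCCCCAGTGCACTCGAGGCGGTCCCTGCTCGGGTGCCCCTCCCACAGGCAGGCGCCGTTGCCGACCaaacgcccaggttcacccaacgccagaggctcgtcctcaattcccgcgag
AL928654.1 and MTA1, chr14:105419577-105419876, plus strand: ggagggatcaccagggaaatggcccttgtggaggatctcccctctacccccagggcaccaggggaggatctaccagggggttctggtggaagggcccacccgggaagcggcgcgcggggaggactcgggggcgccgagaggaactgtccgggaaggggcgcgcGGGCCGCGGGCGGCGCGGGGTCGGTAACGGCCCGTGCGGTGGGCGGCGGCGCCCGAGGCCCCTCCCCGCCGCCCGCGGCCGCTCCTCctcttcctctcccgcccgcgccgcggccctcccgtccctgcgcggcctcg
AL354696.2 and KBTBD6, chr13:41132753-41133052, minus strand: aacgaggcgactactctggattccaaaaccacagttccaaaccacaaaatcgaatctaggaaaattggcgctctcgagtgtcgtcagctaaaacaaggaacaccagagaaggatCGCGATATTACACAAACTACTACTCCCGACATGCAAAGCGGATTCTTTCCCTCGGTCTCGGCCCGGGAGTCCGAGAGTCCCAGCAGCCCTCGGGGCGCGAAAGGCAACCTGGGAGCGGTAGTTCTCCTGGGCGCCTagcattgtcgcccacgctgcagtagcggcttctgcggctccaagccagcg

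The capitals span 108, 70, 87 and 136 bases in the order printed. For MTA1 the RefSeq start lies 7 bases from the start in the table, and the capitals follow the RefSeq start. The first 20 bases of each noncoding transcript were found in its window on the opposite strand. The GC content of the windows is 77.7% for TRIM65, 61% for NUDT19, 77.7% for MTA1 and 56.3% for KBTBD6, beside a median of 66.7% for protein-coding rows and 58.7% for all RefSeq windows. None of the 4 contains the TATA box letters TATAAA on either strand, nor the AP-1 motif TGACTCA, nor the CREB motif written TGACGTCA. Among the windows of the coding partners of divergent members, 372 of 444 outside chromosome 8 had a RefSeq entry, and 3.76% of these held TATAAA, 1.88% TGACTCA and 2.42% TGACGTCA, with a median GC content of 68.3%. The windows of all protein-coding rows outside chromosome 8 (10412 of 12376 matched) held the same letters in 5.12%, 2.37% and 3.5%, and the whole RefSeq set of 35116 windows in 11.5%, 4.95% and 1.85%.

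The members were scarce RNAs. Their median mean level over the 6 libraries was 16 normalised reads in the authors' deposited table (quartiles 5 and 52.25, highest 2028), and 58 of the 752 were listed at 0 after the authors' rounding. All members together made up 0.12% of the summed mean level. Per kilobase of transcript, the median level of members was 27.7 with auxin and 19.4 without auxin, against 460 and 446 for protein-coding rows and 48.2 and 34.4 for the other long noncoding RNAs. Of the members, 342 had a mean level of 20 or more, and 115 of these had 100 or more. The standard error of the log2 fold change, recovered from the deposited p-value, had a median of 0.146 among members of level 100 or more, 0.304 between 20 and 99, and 0.749 below 20, so only large changes could pass the threshold in the last set.

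Most clone-named long noncoding RNAs did not pass the threshold, and those that did were mostly higher with auxin. Of the 752 rows in the authors' deposited table, 189 (25.1%) were higher and 26 (3.46%) lower at an adjusted p of 0.05, and 537 did not pass. Over all rows, 27.8% were higher and 28.9% lower, so the share of members that rose was near the background and the share that fell was far below it. At a change of at least 2-fold with the same adjusted p, 114 members (15.2%) were higher and 3 (0.399%) lower, beside 7.88% and 1.36% of all rows. This larger share of 2-fold rises was not seen beside protein-coding rows of like level, from 5 to under 200 reads. The shares of members and coding rows were 21.3% and 25.2% at 5 to 19 reads. They were 24.3% and 24.8% at 20 to 49 reads, and 15.2% and 17.4% at 50 to 99. From 100 to under 200 reads they were 10% and 16.1%. Members had the larger share at 0 to 4 reads (3.33% and 2.73%) and at 200 or more (9.09% and 5.31%). The median log2 fold change of members was 0.45 (quartiles -0.01 and 1.02), against -0.02 for protein-coding rows, and 549 of the 752 (73%) had a value above 0. Protein-coding rows of low level leaned the same way. At 5 to 19 reads the median was 0.57 for members and 0.48 for coding rows, with 75.2% and 72.4% above 0. At 20 to 49 reads both medians were 0.33. The medians lay further apart at 50 to 99 reads (0.40 and 0.10) and at 200 or more (0.25 and -0.04). Among the members that rose, the fold change ran from 1.21 to 40.3 with a median of 2.19, and 35 changed by at least 4-fold. Among those that fell it ran from 0.403 to 0.834 with a median of 0.631. The derived levels of the 752 members summed to 49301 with auxin and 39944 without auxin. The header of the table does not name the numerator of its fold change, which was read as auxin over no auxin by convention, and every direction given here rests on that reading.

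**Figure D1:**
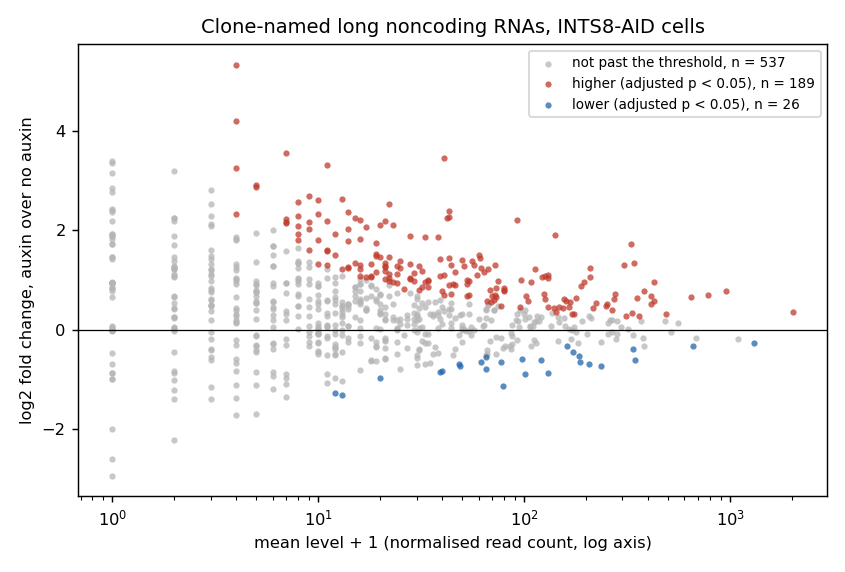
Log2 fold change, auxin over no auxin, of each clone-named long noncoding RNA (vertical axis) against its mean level (horizontal log axis, normalised read count), coloured by the deposited call. Most called points lie above 0: 189 were higher and 26 lower.

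Because the error depends on level, the shares were also read within bins of mean level. Among members at 0 to 4 reads 3.33% were higher, against 4.05% of other long noncoding RNAs and 2.73% of protein-coding rows. In the bin of 5 to 19 reads, the largest with 230 members, 21.3% of members were higher and 1.3% lower, against 25.2% and 2.38% of protein-coding rows. In the bin of 20 to 49 reads 35.1% of members were higher and 2.7% lower, against 33.4% and 9.29% of protein-coding rows. Of the 55 members at 200 reads or more, 47.3% were higher and 10.9% lower, against 27.8% and 34.4% of the 11106 protein-coding rows in that range. Of the 342 members at a level of at least 20, 134 (39.2%) were higher and 23 (6.73%) lower, beside 28.9% and 31.1% of all rows at that level. The members' share of rises was thus below the coding share at 5 to 19 reads and above it in each bin from 20 reads up, and their share of falls was below the coding share in every bin from 5 reads up. These shares describe the table, and no difference between groups of rows was tested.

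**Figure D2:**
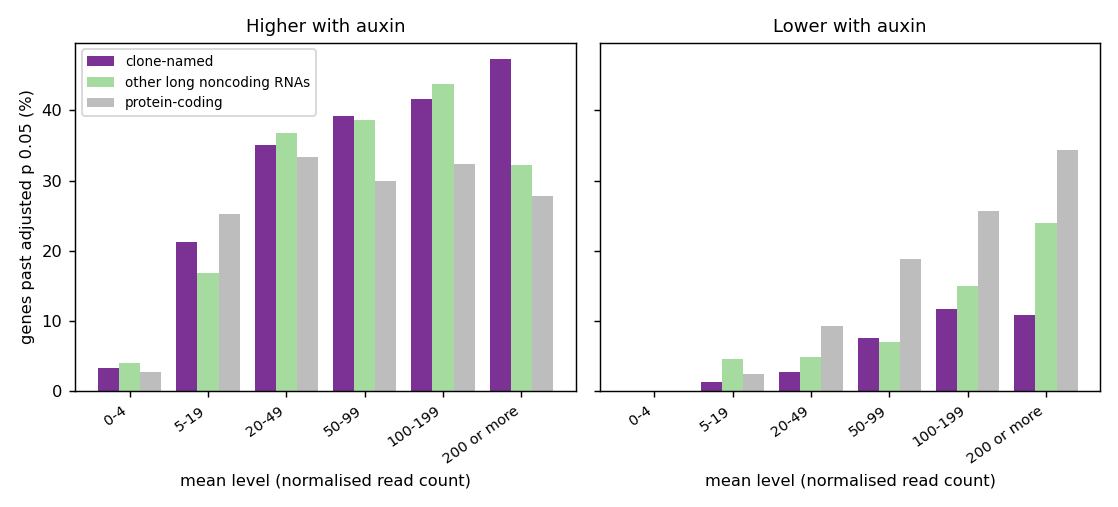
Percent of rows called higher (left) and lower (right) with auxin, in bins of mean level, for clone-named long noncoding RNAs, other long noncoding RNAs and protein-coding rows. Among rows of 200 reads or more, 47.3% of clone-named RNAs were higher and 10.9% lower, against 27.8% and 34.4% of coding rows. Other long noncoding RNAs had 32.2% higher and 24% lower in that range.

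The same lean was present, to differing degrees, in long noncoding RNAs with other kinds of names. Of 61 rows already named -DT or -IT, 25 (41%) were higher and 2 (3.28%) lower, with a median log2 fold change of 0.59. The 334 antisense-named rows had 92 (27.5%) higher and 36 (10.8%) lower (median 0.28). The 119 LINC-named rows had 34 (28.6%) and 8 (6.72%) (median 0.37), and the 28 small-RNA host genes named SNHG or MIR 8 (28.6%) and 3 (10.7%) (median 0.13). Over all rows 27.8% were higher and 28.9% lower. Over rows of any level, the share of rises was thus near the background except for -DT and -IT names, and the share of falls was below it in each group. At a mean level of at least 20, 28.9% of all rows and 39.2% of members were higher. At that level the share was 51.3% for -DT and -IT names, 41.5% for LINC names, 35.2% for antisense names and 30.8% for SNHG and MIR names. Differences between these groups of names were not tested.

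The largest rises, among members of level 20 or more, began with AC108734.4, an RNA of 14 exons at chr3:180707589-180870178 on the minus strand. Its derived level was 73.2 with auxin and 6.64 without auxin, and the authors' deposited table gives an 11-fold change (log2 3.46 ± 0.397, derived SE; adjusted p = 3.03e-17, DESeq2). Its span overlaps the same-strand gene CCDC39, a cilia gene that is not among the rows analysed here, and in GENCODE 29 also FXR1 on the other strand, an RNA-binding protein gene with a fold change of 0.944 that did not pass. Reads of transcripts that share these exons cannot be told apart in such a table.

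AC087289.2 (chr17:75897060-75900148, plus strand) had a derived level of 71.9 with auxin and 13.8 without auxin. Its fold change in the authors' deposited table was 5.21 (log2 2.38 ± 0.315, adjusted p = 3.07e-13, DESeq2). TRIM65, an E3 ubiquitin ligase gene that starts 109 bases away on the other strand, fell in the same comparison, at 1872 with auxin and 3081 without auxin (0.608-fold). The noncoding RNA and the coding RNA of this promoter thus changed in opposite directions. AC087289.2 also overlaps MRPL38 on the opposite strand.

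AC008736.1, since renamed NUDT19-DT (chr19:32687089-32691750, minus strand), was the most abundant of the 8 largest rises. The derived level was 150 with auxin and 32.4 without auxin, a 4.64-fold change in the authors' deposited table (log2 2.21 ± 0.232, adjusted p = 1.55e-20, DESeq2). NUDT19, which encodes a peroxisomal Nudix hydrolase and starts 71 bases away, was at 1651 with auxin and 1981 without auxin and fell to 0.833-fold.

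AC079807.1 (chr2:47906830-47907810, plus strand) was at 70.3 with auxin and 14.6 without auxin, 4.81-fold higher in the authors' deposited table. It starts 332 bases from FBXO11, the gene of an F-box protein that picks substrates for a ubiquitin ligase, which was 1.14-fold higher with an adjusted p of 0.0435 (DESeq2). AC010834.2, now RBM12B-DT, on chromosome 8 was at 33.7 with auxin and 7.36 without auxin (4.58-fold), while RBM12B was 0.993-fold and did not pass. In both pairs the noncoding RNA changed by far more than its partner, which its choice by size of rise made likely.

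AC092143.2 (chr16:89919827-89922662, minus strand) was at 36.3 with auxin and 8.37 without auxin (4.33-fold, adjusted p = 3.74e-06, DESeq2, in the authors' deposited table). Its coding neighbour TUBB3, a beta-tubulin typical of neurons, was at 12336 with auxin and 561 without auxin, a 22-fold rise. This pair moved together, with the larger change in the coding gene. AC092143.2 also lies antisense to MC1R, and in GENCODE 29 its span overlaps that of TUBB3.

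AC108134.4 (chr16:3106764-3109576, plus strand) ends 2984 bases upstream of ZNF205, a zinc finger gene on the same strand. The derived level was 37.0 with auxin and 6.37 without auxin, a 5.80-fold change in the authors' deposited table, while ZNF205 was 1.23-fold higher. AC036222.3 (chr17:48460370-48466040, plus strand) was at 68.3 with auxin and 14.4 without auxin (4.74-fold) and overlaps no other gene of GENCODE 29. Its nearest coding row, the homeobox gene HOXB2, is 76615 bases away and was 0.785-fold.

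**Figure D3:**
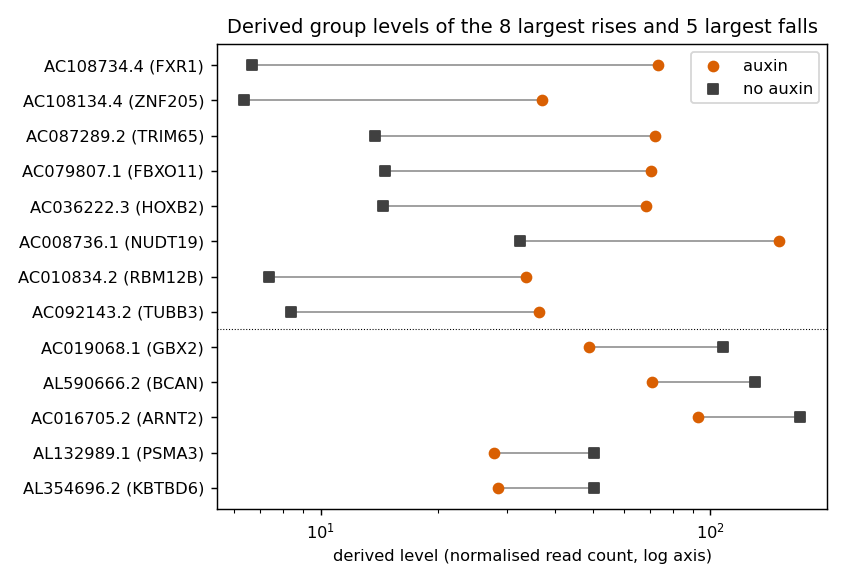
Derived group level (horizontal log axis, normalised read count) of the 8 members with the largest rises and the 5 with the largest falls among members of mean level 20 or more, with auxin (circles) and without auxin (squares); the nearest or partner coding gene is in brackets. AC108734.4 spans 73.2 against 6.64, and AC019068.1 spans 48.9 against 107.5.

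The falls were fewer and smaller. AC019068.1, now GBX2-AS1 (chr2:236167465-236214225, plus strand), was at 48.9 with auxin and 107.5 without auxin, 0.455-fold in the authors' deposited table (log2 -1.14 ± 0.231, adjusted p = 3.13e-06, DESeq2). It starts inside GBX2, a homeobox gene on the other strand, which was 8.65-fold higher, at 1708 with auxin and 197 without auxin. AL590666.2, now BCAN-AS2, was likewise lower (70.9 with auxin and 130 without auxin, 0.544-fold) where BCAN, the proteoglycan gene it lies antisense to, was 6.96-fold higher. In both pairs the coding gene rose and the antisense RNA fell.

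The other 3 of the 5 largest falls sat beside coding genes that were lower or did not pass. AC016705.2, now ARNT2-DT, was at 92.9 with auxin and 169 without auxin (0.548-fold), and ARNT2, a bHLH-PAS transcription factor gene 807 bases away, was 0.612-fold. AL354696.2 was at 28.5 with auxin and 50.3 without auxin (0.567-fold, adjusted p = 0.0165, DESeq2), and KBTBD6, which encodes an adaptor of a cullin ubiquitin ligase, was 0.753-fold. AL132989.1 lies within the proteasome subunit gene PSMA3 on the same strand and was at 27.8 with auxin and 50.2 without auxin (0.553-fold), while PSMA3 did not pass at 0.917-fold.

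Of the 6 most abundant members 3 were higher, 1 was lower and 2 did not pass, and each of the 6 changed by less than 2-fold. AC010442.1, now PP7080, was at 2283 with auxin and 1771 without auxin (1.29-fold, adjusted p = 7.09e-08, DESeq2, in the authors' deposited table). AC015813.1, whose start lies 9881 bases downstream of the splicing factor gene SRSF1, was at 1190 with auxin and 1426 without auxin (0.834-fold, lower), and SRSF1 did not pass at 0.997-fold. AC026362.1 (0.887-fold, adjusted p = 0.0864) and AC004943.2, now ZFHX3-AS1 (0.897-fold, adjusted p = 0.112), did not pass in that DESeq2 comparison. AC026362.1 overlaps ARL6IP4 on the same strand, whose row is listed at a derived level of 0.707 with auxin and 0.367 without auxin.

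The remaining 2 of the 6 were divergent and were among those that rose. AL928654.1, now MTA1-DT, was at 1201 with auxin and 698 without auxin (1.72-fold, log2 0.78 ± 0.103, adjusted p = 1.89e-13, DESeq2, in the authors' deposited table). MTA1, a subunit of the NuRD chromatin complex that starts 81 bases away, was at 4974 with auxin and 9189 without auxin (0.541-fold). AC012313.1, now ZNF584-DT, was at 973 with auxin and 596 without auxin (1.63-fold), and ZNF584 was 0.99-fold and did not pass.

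Position split the members unevenly. Over all rows 27.8% were higher and 28.9% lower. Of the 467 divergent members 135 (28.9%) were higher, near that background, and 7 (1.5%) lower, with a median log2 fold change of 0.58. Of the 285 in the other classes 54 (18.9%) were higher, below the background, and 19 (6.67%) lower, with a median of 0.25. At a mean level of at least 20, 93 of 209 divergent members (44.5%) were higher and 7 (3.35%) lower. The 133 others had 41 (30.8%) higher and 16 (12%) lower, beside 28.9% and 31.1% of all rows at that level. The distant class had 24 of 134 higher and 7 lower, and the antisense class 11 of 64 and 4. The same-strand overlap class, in which reads of the coding gene can fall on the noncoding row, had 1 of 19 higher and 2 lower and a median log2 fold change of 0.00. The differences between classes were not tested.

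**Figure D4:**
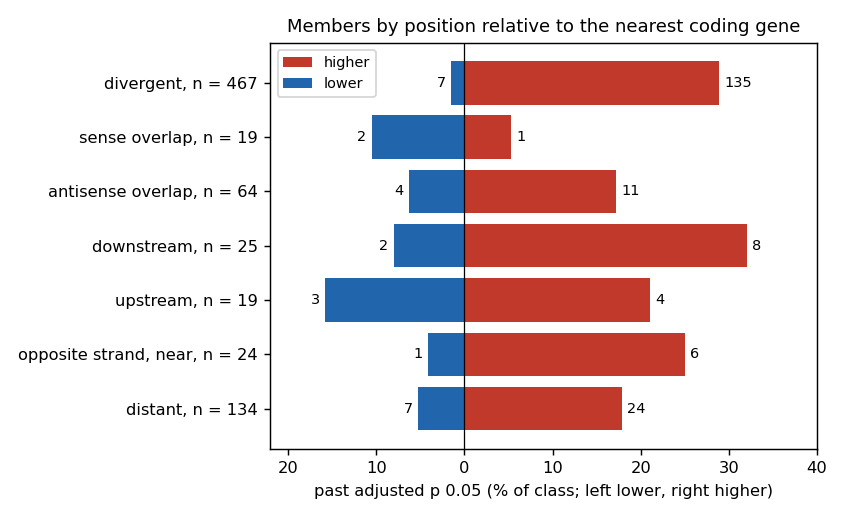
Percent of members called higher (right) and lower (left) with auxin in each position class, with the number of members called at each bar. The divergent class has 135 higher and 7 lower of 467, and the distant class 24 and 7 of 134. Over all rows 27.8% were higher and 28.9% lower.

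Within the divergent class the distance between the starts was read as well. Where the spans of member and coding gene lay apart, 104 of 312 (33.3%) were higher and 5 lower, and where their heads overlapped 31 of 155 (20%) were higher and 2 lower. With starts 250 bases apart or less, 58 of 155 (37.4%) were higher, then 27 of 88 (30.7%) beyond that and up to 500 bases. Beyond those, 15 of 49 (30.6%) were higher up to 1000 bases and 4 of 20 (20%) up to 2000 bases. These shares stand beside 27.8% higher and 28.9% lower over all rows. The median mean level also differed along this order, at 23, 18.5, 20 and 9.5 normalised reads, and its part in the shares was not tested. Members of 2 exons had 127 of 451 (28.2%) higher and 15 (3.33%) lower, with a median log2 fold change of 0.54. Those of 3 or more exons had 59 of 287 (20.6%) and 10 (3.48%), with a median of 0.29. The median mean levels were 17 and 15.

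The coding partners of the divergent members did not share their lean. Of the 467 partners 129 (27.6%) were higher and 146 (31.3%) lower, with a median log2 fold change of -0.04, beside 28% and 31.9% of all protein-coding rows. For the 135 members that rose, 40 partners rose, 45 fell and 50 did not pass. For the 7 that fell, 5 partners fell, 1 rose and 1 did not pass. In all, 45 pairs passed in the same direction and 46 in opposite directions. Among the 209 pairs with a member level of at least 20, the log2 fold changes of member and partner had a Pearson r of 0.09 and a Spearman rho of 0.09. This is a description across gene pairs that share their 6 libraries, and genes are not independent replicates. In 152 of these 209 pairs the member's log2 fold change was above that of its partner. Over the 209 pairs the median log2 fold change was 0.42 for members and -0.04 for partners. In the 93 pairs whose member rose, the median of the partners was -0.02. The members' own median of 0.96 in those 93 pairs follows from choosing pairs by the member's rise.

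**Figure D5:**
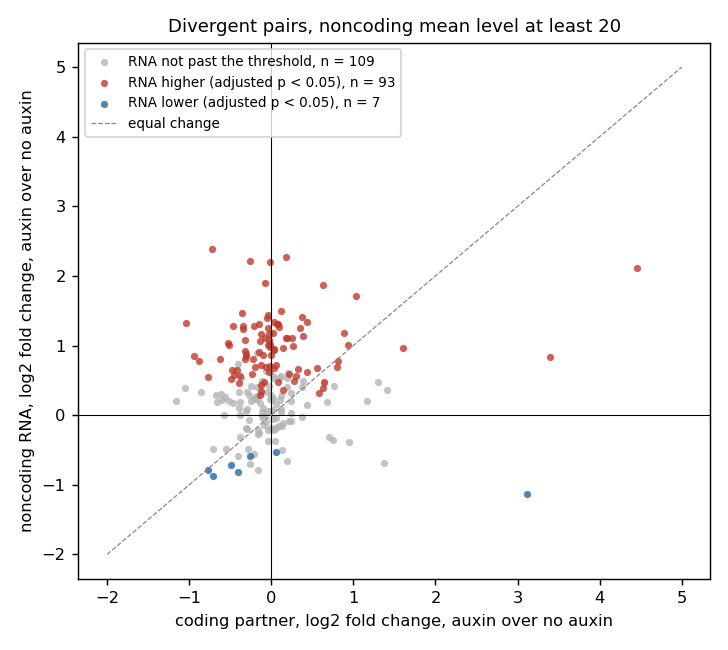
Log2 fold change, auxin over no auxin, of each divergent member of mean level 20 or more (vertical axis) against that of its coding partner (horizontal axis), 209 pairs. Points scatter widely, with a Spearman rho of 0.09, and 152 lie above the line of equal change.

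The noncoding RNA was the scarcer of the 2 in most of these pairs, by levels of total RNA that do not separate synthesis from decay. Per kilobase of transcript, the member's level was a median of 12% of its partner's with auxin and 8.67% without auxin over the 209 pairs. The member exceeded its partner per kilobase in 14 pairs with auxin and in 12 without auxin. Some further divergent members, chosen after their values were seen, illustrate the range. AC012645.1, now YPEL3-DT, was at 503 with auxin and 153 without auxin (3.29-fold in the authors' deposited table), and YPEL3, a gene linked to growth arrest, was 2.04-fold higher. AC023043.1, now COSMOC, was 2.50-fold higher while MOCOS, the molybdenum cofactor sulfurase gene 49 bases away, was 0.488-fold. AP001453.2 was 1.80-fold higher while the growth factor gene VEGFB was 0.522-fold.

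The 3 members named for the antisense class, which overlap a coding row on the other strand with starts over 2000 bases apart, rose in genes that fell. AC138028.2 lies within PIEZO1, the gene of a mechanosensitive ion channel, and was at 222 with auxin and 58.7 without auxin (3.77-fold, log2 1.92 ± 0.193, adjusted p = 3.5e-22, DESeq2, in the authors' deposited table). PIEZO1 was at 5392 with auxin and 9566 without auxin (0.564-fold). AC005339.1 was 2.34-fold higher within TNFAIP8L1, which was 0.439-fold, and in GENCODE 29 it also overlaps MYDGF on the same strand. AC007292.1 was 2.32-fold higher within SH3GL1, an endophilin gene, which was 0.731-fold. Over the class, of the 11 antisense members that rose, 4 coding genes rose, 6 fell and 1 did not pass. For the 4 that fell, 3 coding genes fell and 1 rose. In all, 7 pairs passed in the same direction and 7 in opposite directions. Of the 64 coding genes of this class 29.7% were higher and 40.6% lower. The sources used here do not say whether the authors' counting used strand, so reads of such overlapping pairs cannot be told apart with certainty.

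Members on the same strand as a coding gene were described by whether they overlap it, follow it or precede it. AL139287.1, annotated as a sense intronic RNA of INTS11, the Integrator endonuclease gene, was at 59.6 with auxin and 93.6 without auxin (0.636-fold, adjusted p = 0.00517, DESeq2), and INTS11 was 0.757-fold in the authors' deposited table. AC004080.5, which overlaps HOXA6, was 1.53-fold higher, and so was HOXA6. Downstream of coding genes, AC010325.2 was 3.63-fold higher beyond C19orf48, which did not pass at 0.927-fold. AC010624.1 was 2.45-fold higher beyond the zinc finger gene ZNF473 (1.04-fold, not past) by the authors' deposited positions. In GENCODE its span overlaps that of ZNF473 on the same strand, where reads of the coding gene can fall on the noncoding row. AC020661.1 was 2.06-fold higher beyond VPS18, a vacuolar sorting gene that was 1.20-fold higher. Of the 25 downstream members 8 (32%) were higher, near the 27.8% of all rows, and 2 (8%) lower, beside 28.9% of all rows. Upstream of coding genes, AC145285.2 was 1.98-fold higher before ATXN2L (0.862-fold, lower), and AC020934.1 was 1.88-fold higher before MAST1, a microtubule-associated kinase gene that was 0.413-fold.

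Members on the opposite strand near a coding gene without overlap had 6 of 24 (25%) higher, near the 27.8% of all rows. Of the same 24, 1 (4.17%) was lower, beside 28.9% of all rows. AC007405.2, now ERICH2-DT, was 1.64-fold higher near SP5, a transcription factor gene that was 2.35-fold higher. AC008443.5, now TRIM7-AS2, was 1.5-fold higher near TRIM7 (0.573-fold, lower). This class follows the authors' deposited positions, and in GENCODE the span of AC008443.5 overlaps that of TRIM7 on the other strand. AC110285.2 was 0.772-fold near BAHCC1, which did not pass. In the distant class, AC124067.4 on chromosome 8, which is 97004 bases from the zinc finger gene ZNF703, was at 61.6 with auxin and 22.6 without auxin (2.72-fold in the authors' deposited table).

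Coding genes listed as rapidly induced (immediate early) were mostly higher in these libraries, and few of their clone-named neighbours passed. Of the 46 listed genes measured, 41 (89.1%) were higher and 3 (6.52%) lower, beside 28% and 31.9% of protein-coding rows. The list was chosen with earlier results of these data known, so its count is a description only. The 6 members set beside such a gene were AL158151.1, AC092807.4, AL133346.1, AL359710.1, AC025164.2 and AF111167.1. AL158151.1, now IER5L-AS1, was at 33.2 with auxin and 18.7 without auxin (1.78-fold, adjusted p = 0.0324, DESeq2, in the authors' deposited table), beside a 10.6-fold rise of IER5L. The others did not pass. AL133346.1 was at 4.6 with auxin and 4.96 without auxin next to CCN2, a matricellular growth factor gene that was 8.93-fold higher, and AL359710.1 was at 7.72 with auxin and 10.8 without auxin next to the nuclear receptor gene NR4A3, 9.01-fold higher. AF111167.1 was at 1.99 with auxin and 1.96 without auxin near FOS, 16.3-fold higher. AC092807.4 was at 15.2 with auxin and 14.8 without auxin near CCN1, 2.28-fold higher, and AC025164.2, now BTG1-DT, was at 22.2 with auxin and 12.1 without auxin beside BTG1, 2.23-fold higher. All 5 had mean levels below 20, where only large changes could pass.

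Nuclear decay of such transcripts is carried out by the exosome and its adaptor complexes. The list for these complexes and proteins that bind them held 20 symbols, of which SKIV2L2 is an older name of MTREX, also listed. The 19 genes were all in the table, 2 (10.5%) higher and 8 (42.1%) lower, beside 28% and 31.9% of protein-coding rows. Their median log2 fold change was -0.12. Of the catalytic and core exosome genes, EXOSC4 was 0.719-fold, EXOSC5 0.723-fold and EXOSC10, the nuclear exonuclease, 0.774-fold, while DIS3 did not pass at 1.05-fold. ZCCHC8, a scaffold of the nuclear exosome targeting complex, was 1.32-fold higher, and NRDE2, an MTREX-binding nuclear protein, 1.16-fold higher. The part of these changes in the levels of the noncoding RNAs was not tested.

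The annotated 3′ ends of the members mostly lacked the 2 common polyadenylation signals. The signal AATAAA or its common variant ATTAAA was present in the last 50 bases of 246 of 738 GENCODE 29 transcripts matched to members (33.3%), against 310 of 597 matched to other long noncoding RNAs (51.9%). By call, the share was 37.6% of 186 members that rose, 32% of 25 that fell and 31.9% of 527 that did not pass. The end of an annotated transcript may be incomplete, and the letters searched say nothing of whether the RNA is polyadenylated.

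The series as a whole gave few checks of its labels. INTS8 itself was at 7065 with auxin and 5540 without auxin (1.28-fold higher in the authors' deposited table, adjusted p = 1.33e-07, DESeq2), which checks nothing about the protein that the degron removes. Of 8 embryonic kidney markers 7 were in the table, with a summed derived level of 7107 with auxin and 7467 without auxin, and PAX8 was not among the rows. Of 8 neuron markers 5 were in the table, all 5 higher, with a sum of 23485 with auxin and 3703 without auxin, and the other 3 (SNAP25, RBFOX3, DCX) were not among the rows. Of 7 blood and 6 fibroblast markers 1 each was in the table, HBB at 1.03 with auxin and 2.73 without auxin and PDGFRA at 172 with auxin and 112 without auxin. Their part in the levels of the noncoding RNAs was not tested. Fewer cells of a kind and less RNA per cell cannot be told apart in such bulk samples. Members nearest the threshold were AC138649.1 (0.796-fold, adjusted p = 0.0494) and AC148477.3 (1.25-fold, adjusted p = 0.04999) on the inside, and AC010198.1 (3.85-fold, adjusted p = 0.0500015) and AP000781.1 (4.02-fold, adjusted p = 0.0519) on the outside, all from DESeq2 in the authors' deposited table.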

How the data were processed

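RNA was isolated in Trizol, cleared of DNA and ribosomal RNA and sequenced as directional libraries, per the labels' protocols. The submitters' processing notes name STAR 2.7.3a, DESeq2 and the builds hg38 and dm6. The counting tool, its use of strand, the annotation, the normalization and the role of the fly build are not given in the sources used here. The authors deposited a comparison table. Per the file headers it holds a mean level, used as a score because the authors rounded it to whole numbers, a ratio (linear fold change), log2 values (fold change and expression), p-values and adjusted p-values. The table has no values per library, so the depth is unknown and counting error is not given.

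The planned test of values per library was therefore replaced, as laid down for this case, by the deposited adjusted p at 0.05. The deposited log2 expression was found to be the numerator group's level per kilobase (largest gap 0.00949702 log2 over 11384 rows of mean level 200 or more). Group levels were derived from it, transcript length and fold change. For 14476 of the 14538 rows the mean of the derived levels matched the listed mean level within 1 read or 1%. Standard errors were recovered by dividing the size of the log2 fold change by the normal quantile of the two-sided p-value, so they are not an SD across libraries. Positions, transcripts and overlaps came from the table and GENCODE 29, of which 749 members matched, 554 with an identical span. Promoter windows are RefSeq's. Python 3.11.15, pandas 2.3.3, numpy 2.4.6, scipy 1.17.1 and matplotlib 3.10.9 were used, and the scripts were tested on simulated data. Named members are the 8 largest rises and 5 largest falls at a mean level of at least 20, the 6 highest levels, the 3 largest changes per position class, neighbours of immediate early genes, and 2 members on each side of the threshold, with their coding neighbours. Members, lists and rules were chosen with earlier results of these data known. Alternatives were a stricter adjusted p, a fold limit, level filters, readjusted p-values, centring, other distances, and GENCODE neighbours.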

Additional observations from a re-analysis of the deposited data

How the results depend on the processing

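No paired analysis was possible because the table gives only the comparison of the 2 groups, and for the same reason leaving out each library, another normalization and another test could not be run. Counts of members moved with the threshold. At a fold change of at least 2, 114 members were higher and 3 lower. At an adjusted p of 0.01, 133 were higher and 17 lower, and 29 divergent pairs passed in the same direction and 29 in opposite directions. At a mean level of at least 100, 51 were higher and 13 lower. Limits chosen after seeing the data left 51 higher and 4 lower among the 177 members that overlap no other gene of GENCODE 29, and 88 higher and 13 lower among the 200 of level 20 or more that overlap no other row. The smaller position classes moved with the definition of a neighbour. With neighbours sought within 50000 bases there were 71 distant, 53 downstream, 40 upstream and 38 opposite-strand members, and with all coding genes of GENCODE 29 as neighbours 80 distant, 51 same-strand overlapping and 131 antisense members. The opposite-strand class held 38 members with divergent starts within 1000 bases and 11 with starts within 5000 bases. Readjusting p over every row gave 188 higher. Other distances gave 427 to 500 divergent members with 126 to 139 higher and 7 to 8 lower. Centring on the median of rows of mean level 100 or more (a shift of -0.03) gave 189. It kept the deposited adjusted p and asked only whether the sign held. The smallest called changes were 1.21-fold and 0.834-fold, so this shift could not alter a call. Of the 34 named members past the threshold, 6 did not pass at 0.01 (AC007405.2, AC138649.1, AC145285.2, AC148477.3, AL158151.1 and AL354696.2) and 1 did not pass after readjustment (AC148477.3, adjusted p = 0.0502). The larger counts of rises than falls held under each of these settings, of which centring could not have changed them. Precision is limited by level: 410 members lie below a mean level of 20.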

Other observations

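Clone-named long noncoding RNAs were spread over all chromosomes with rows in the table except Y. The counts that follow can be read beside the 27.8% of all rows that were higher and the 28.9% that were lower, and no difference between chromosomes or types was tested. Chromosome 1 had 73 members (13 higher and 7 lower), chromosome 17 had 66 (14 and 5), chromosome 19 had 65 (22 and 1) and chromosome 16 had 47 (21 and 2). On chromosome 21 they made up 13.4% of the 157 rows (3 higher and 0 lower of 21), and on the X chromosome 1.93% of the 467 rows. By GENCODE 29 type, the 469 antisense members had 128 higher and 13 lower, the 206 lincRNA members 48 and 8, the 40 processed transcripts 6 and 1, the 18 sense intronic RNAs 0 and 1, and the 11 sense overlapping RNAs 4 and 2.

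The highest fold change among called members lay below the mean level of 20 set for members named by size of change and is given here after its value was seen. AP001922.1, now DGAT2-DT, had a derived level of 7.40 with auxin and 0.184 without auxin, 40.3-fold in the authors' deposited table, and DGAT2, an enzyme gene of triglyceride synthesis, was 0.654-fold. A fold change over a level this close to 0 rests on very few reads. Of the 189 members that rose, 55 had a mean level below 20, and of the 26 that fell 3 did.

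The 7 divergent members that fell included AC019068.1, AC016705.2 and AL354696.2, described above. The other 4, named after their values were seen, were AC009133.1, now MVP-DT (0.695-fold), AC093157.1, now DPH5-DT (0.665-fold), AC116407.1 (0.581-fold) and AL117336.2, now CCNY-AS1 (0.607-fold). DPH5, RHOT1 and CCNY, the partners of the last 3, were lower as well.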
